A study of Mus musculus with 8 samples.

Results

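These 9 mouse genes were followed here because their RNA was lower in B cells of Eif3e conditional knockout (cKO) mice than in B cells of control mice: Car2, Cyp4f18, Itih5, Dusp3, Trib1, Gstt1, Bhlhe41, Myo1f and Ifi211. These 9 genes, of 32285 counted, were chosen by their values in YFP+ naive-like, YFP+ pre-GCB-like and total naive-like B cells, so their values in those 3 contrasts are given as a description with no test. Their levels in the other B cell classes and in T, NK and myeloid cells did not enter the choice, although they came from the same mice and libraries. Single-cell RNA counts came from cells of 2-month-old mice in 4 groups of 2 libraries, labelled as spleen, although the extraction protocol also names lymph nodes. The cKO mice carried Eif3e fl/fl, the Cγ1Cre allele and a Rosa26-YFP LSL reporter, and the control mice carried the same Cre and reporter without the floxed Eif3e gene. In each batch, 1 library per genotype held live total splenocytes and 1 held sorted YFP+ cells, and these 2 libraries are called a pool below. Whether both came from the same mice is not stated, so they are not taken as separate mice. Cγ1Cre becomes active when activated B cells transcribe the Ig γ1 constant gene, and YFP marks cells in which Cre was active or their progeny. The YFP+ libraries also held T cells, with 175 and 32 CD4 T cells in controls and 203 and 20 in cKO. Whether some YFP+ naive-like cells likewise passed the sort without active Cre was not tested. Each library pooled 2 to 3 mice, and p-values therefore measure the spread between pooled libraries.

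The products of these genes do different jobs, and no single pathway joins them. Car2 is a cytosolic carbonic anhydrase, which converts carbon dioxide to bicarbonate, and Cyp4f18 is a cytochrome P450 that hydroxylates and inactivates leukotriene B4, a lipid attractant of leukocytes. Itih5 is an inter-alpha-trypsin inhibitor heavy chain, of the family that stabilises hyaluronan-rich matrix, and Gstt1 is a theta class glutathione transferase. Dusp3 removes phosphate from MAP kinases, and Trib1 is a pseudokinase that brings C/EBP factors to the ubiquitin ligase COP1. Bhlhe41 is a helix-loop-helix repressor of the circadian feedback loop that also marks B1 and memory B cells. Myo1f is a class I myosin of leukocytes, and Ifi211 is a PYHIN protein of the interferon-inducible cluster. Eif3e itself is a subunit of translation initiation factor eIF3, and B cells are known to change their translation strongly when they are activated.

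All 9 genes were protein coding in the GENCODE annotation of GRCm38. Cyp4f18 lay on the minus strand at chr8:71988482-72009626, Bhlhe41 on the minus strand at chr6:145858243-145865558 and Ifi211 on the minus strand at chr1:173896345-173913046. Car2 lay on the plus strand at chr3:14886273-14900770, Itih5 on the plus strand at chr2:10153571-10256529 and Myo1f on the plus strand at chr17:33555707-33607764. Dusp3 lay on the minus strand at chr11:101971143-101987013, Gstt1 on the minus strand at chr10:75783813-75798584 and Trib1 on the plus strand at chr15:59648350-59657099. Trib1 shared its chromosome with Eif3e, which lay on the minus strand at chr15:43250058-43282719.

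Promoter windows of 7 of the 9 genes were read from RefSeq sequence of GRCm38.p6 and searched on both strands for 12 motifs in the 250 bases before the start site. The motifs were chosen after the values were known, and a match describes letters, not a bound site. The 3 stretches shown hold a match of a different motif each, and were picked after the values were known. Capitals mark the E-box CACGTG in Bhlhe41, the core of the interferon response element in Ifi211 and the PU.1 motif GAGGAAG, here read on the opposite strand, in Cyp4f18.

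Bhlhe41, chr6:145865559-145865633, minus strand: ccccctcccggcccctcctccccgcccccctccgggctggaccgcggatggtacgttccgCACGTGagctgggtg

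Ifi211, chr1:173913047-173913143, minus strand: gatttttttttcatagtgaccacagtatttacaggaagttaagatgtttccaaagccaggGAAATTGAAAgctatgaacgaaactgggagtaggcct

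Cyp4f18, chr8:72009767-72009876, minus strand: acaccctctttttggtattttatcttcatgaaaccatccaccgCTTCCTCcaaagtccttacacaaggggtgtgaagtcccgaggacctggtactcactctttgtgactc

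The E-box of Bhlhe41 lay 153 to 148 bases before the RefSeq start, which is inside the gene as GENCODE places it, and 15 to 10 bases before the GENCODE start. The interferon core of Ifi211 lay 37 to 28 bases and the PU.1 letters of Cyp4f18 207 to 201 bases before the start, which was the same in both annotations. The E-box letters were found in 6.02% of 32851 promoter windows, the interferon core in 2.98% and the PU.1 letters in 10.6%. The interferon core was also found in Gstt1. No letters of the AP-1 motif TGANTCA, of the STAT motif TTCNNNGAA or of the CRE motif TGACGTCA were found in any of the 7 windows, against 6.75%, 7.02% and 1.55% of all windows, while the STAT6 motif, found in 5.85% of them, matched in Ifi211.

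Of 83967 cell barcodes in 8 libraries, 83704 passed the filters, and each library held 71894780 to 105224903 UMIs with a median of 5250 to 6810.5 UMIs per cell. Between 51 and 102 barcodes were shared by each of the 28 pairs of libraries. The 2 libraries of the first cKO pool stood apart, since Xist stood at 637.54 and 524.33 counts-per-million (CPM) there and at 0.158 to 0.348 CPM in the other 6 libraries, while the Y-linked Ddx3y was present in all 8 at 52.026 to 139.57 CPM. Some values below are therefore also given without that pool. Eif3e RNA over all cells stood at 226.72 to 288.7 CPM in all 8 libraries, but 3′ counts outside the deleted part do not check the deletion, and the deleted exons are not known here. Cells were grouped into classes from marker genes and named by them as "like" classes, and every level below is in CPM, the summed UMIs of a gene scaled to the total UMIs of the class in 1 library. Such a sum cannot tell fewer expressing cells from less RNA per cell, and shares of cells with a UMI are given where the counts allow. Reads of Gstt1 could be shared with its neighbours Gstt2 and Gstt3, and reads of Ifi211 with other PYHIN genes, so these levels are less certain.

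In control mice each gene had its own distribution over cell classes. Cyp4f18 was highest in monocyte or macrophage-like cells, at 191 ± 18.9 CPM (SD, n = 2), and within the B lineage it was highest in naive-like and MZB-like cells, where it stood at 95.0 ± 0.071 and 86.2 ± 4.86 CPM in total splenocytes. It was lower in B1-like cells, at 63.0 ± 3.53 CPM in the YFP+ sort, and lower again in GCB-like cells, at 30.1 ± 0.163 CPM. The naive-like and B1-like libraries did not overlap, whereas the YFP+ naive-like, YFP+ MZB-like and total MZB-like libraries did overlap with the next in order. Bhlhe41 had another order. It was highest in T-bet+ B-like cells at 108 ± 8.40 CPM, in B1-like cells at 95.4 ± 6.72 CPM and in memory B-like cells at 86.5 ± 20.7 CPM in the YFP+ sort, and stood at only 3.05 ± 0.708 CPM in total naive-like cells. The T-bet+ libraries lay above the B1-like libraries, and the B1-like and memory B-like libraries overlapped in level.

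Several of the genes were myeloid or NK genes first. Myo1f was highest in monocyte or macrophage-like cells at 578 ± 30.9 CPM, in NK cells at 441 ± 13.0 CPM and in cDC-like cells at 315 ± 9.495 CPM, and among B cells it was highest in memory B-like cells at 176 ± 14.1 CPM, overlapping with T-bet+ B-like cells at 152 ± 38.6 CPM. Car2 stood at 265 ± 19.4 CPM in NK cells and at 720 ± 775 CPM in neutrophil-like cells, where the 2 control libraries differed too far to give an order. The neutrophil-like cells were 1 cluster led by S100a9 and S100a8 that scored about as high for basophil or mast cell markers as for neutrophil markers, and the part of such a mixture in the Car2 level was not tested. Among B cells Car2 stood at 12.7 ± 0.781 CPM in total naive-like cells and 9.28 ± 4.36 CPM in YFP+ GCB-like cells. Dusp3 was highest in monocyte or macrophage-like cells at 91.9 ± 29.966 CPM, and stood at 23.1 ± 1.85 CPM in YFP+ naive-like and 22.8 ± 1.98 CPM in memory B-like cells, which overlapped. Ifi211 also led in monocyte or macrophage-like cells, at 97.3 ± 49.2 CPM. Trib1 was highest in pDC-like cells at 300.2 ± 32.7 CPM and, in the B lineage, in plasma cell-like cells, at 108 ± 6.96 CPM in total splenocytes. Itih5 was highest in NK cells at 37.1 ± 5.94 CPM, with 14.5 ± 0.779 CPM in transitional B-like and 12.5 ± 2.09 CPM in naive-like cells of total splenocytes.

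Gstt1 was highest in activated B cell classes. Its highest control levels were 15.8 ± 7.82 CPM in T-bet+ B-like, 14.6 ± 9.07 CPM in GCB-like and 13.5 ± 1.92 CPM in pre-GCB-like cells of the YFP+ sort, and these 3 overlapped. No Gstt1 UMI was counted in the naive-like cells of either control library of total splenocytes, which allows a level of up to 0.192 and 0.181 CPM (3 UMIs of the class, counting error only). The heat map of control levels shows these orders side by side. Levels of different genes are compared between classes only and not with each other.

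**Figure D1:**
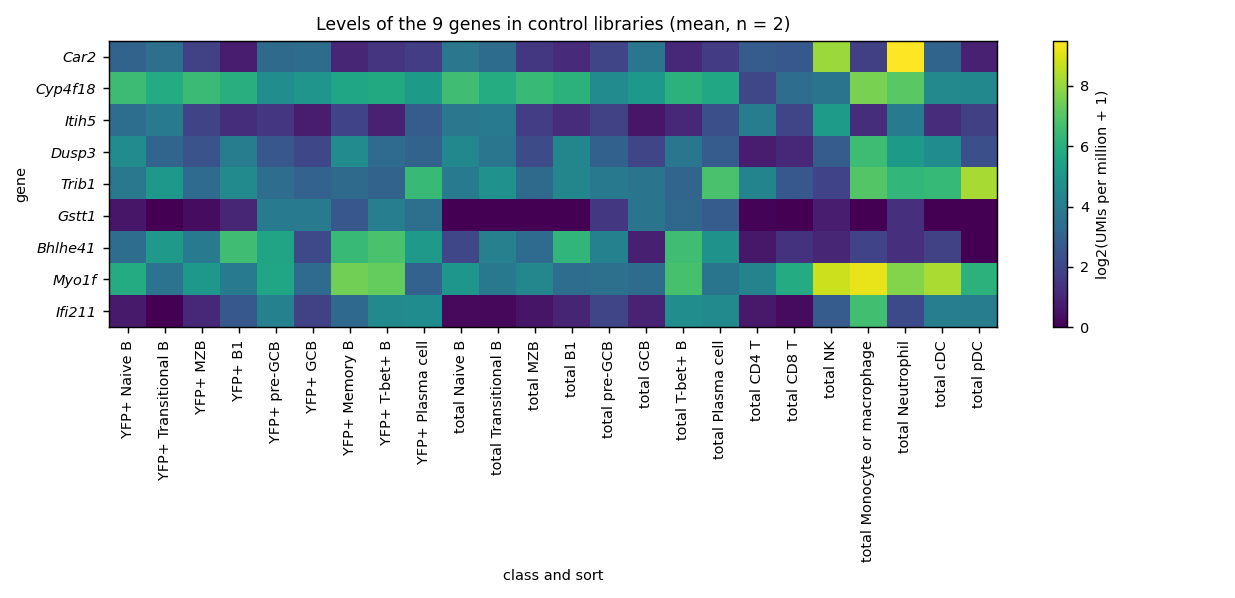
Colour gives log2(CPM + 1) of each of the 9 genes (rows) in each class and sort (columns), as the mean of the 2 control libraries. Myo1f, Cyp4f18, Dusp3 and Ifi211 are bright in the monocyte or macrophage-like column, Bhlhe41 in T-bet+, B1-like and memory B-like cells, and Gstt1 is dark outside activated B cell classes.

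In YFP+ naive-like B cells 7 of the 9 genes passed the filter on low counts, and Gstt1 and Ifi211 did not. Cyp4f18 stood at 89.6 and 91.7 CPM in the 2 control libraries and at 27.4 and 16.4 CPM in the 2 cKO libraries, a log2 fold change of -1.92. Both cKO libraries lay below both controls, and the second cKO library was the lower one. Myo1f stood at 46.0 and 66.5 CPM against 21.4 and 10.3 CPM, a log2 fold change of -1.71. Dusp3 stood at 24.4 and 21.8 CPM against 6.51 and 6.12 CPM, a log2 fold change of -1.71. For both genes the groups did not overlap, and for Dusp3 the 2 libraries of each group were close. Trib1, the COP1 adaptor, stood at 11.3 and 14.3 CPM against 2.98 and 2.65 CPM, a log2 fold change of -2.01. Itih5 stood at 11.2 and 8.55 CPM against 1.60 and 0.918 CPM, a log2 fold change of -2.77. Car2 stood at 6.81 and 7.46 CPM against 1.12 and 0.367 CPM, which was the widest difference of the 7 genes, with a log2 fold change of -3.04. Bhlhe41 stood at 8.44 and 10.7 CPM against 5.02 and 2.04 CPM, the narrowest, with a log2 fold change of -1.31. All 7 groups were separate, which follows from how the genes were chosen. Across all genes 0.777% of 12745 passed the edgeR test here in either direction, and nothing is read from that share for genes chosen in this contrast. Without the first cKO pool the 7 log2 fold changes lay between -3.79 for Car2 and -1.71 for Dusp3. Markers of other classes also moved here. The 6 MZB markers summed to 619.43 and 463.45 CPM in controls and 188.72 and 105.69 CPM in cKO, with none called. The 5 T-bet+ B markers summed to 148.94 and 132.26 CPM against 337.08 and 379.27 CPM, with 1 higher and 1 lower. Jchain of the plasma cell list was called lower, with sums of 338.71 and 330.72 CPM in controls and 148.31 and 171.88 CPM in cKO. Parm1 of the memory B list was called higher, although that list summed to 451.16 and 476.66 CPM against 337.71 and 218.54 CPM. Adgre1 of the monocyte list was called higher, with sums of 6.53 and 5.44 CPM against 25.2 and 16.0 CPM. No naive B marker was called. The part of such cells in these values was not tested.

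**Figure D2:**
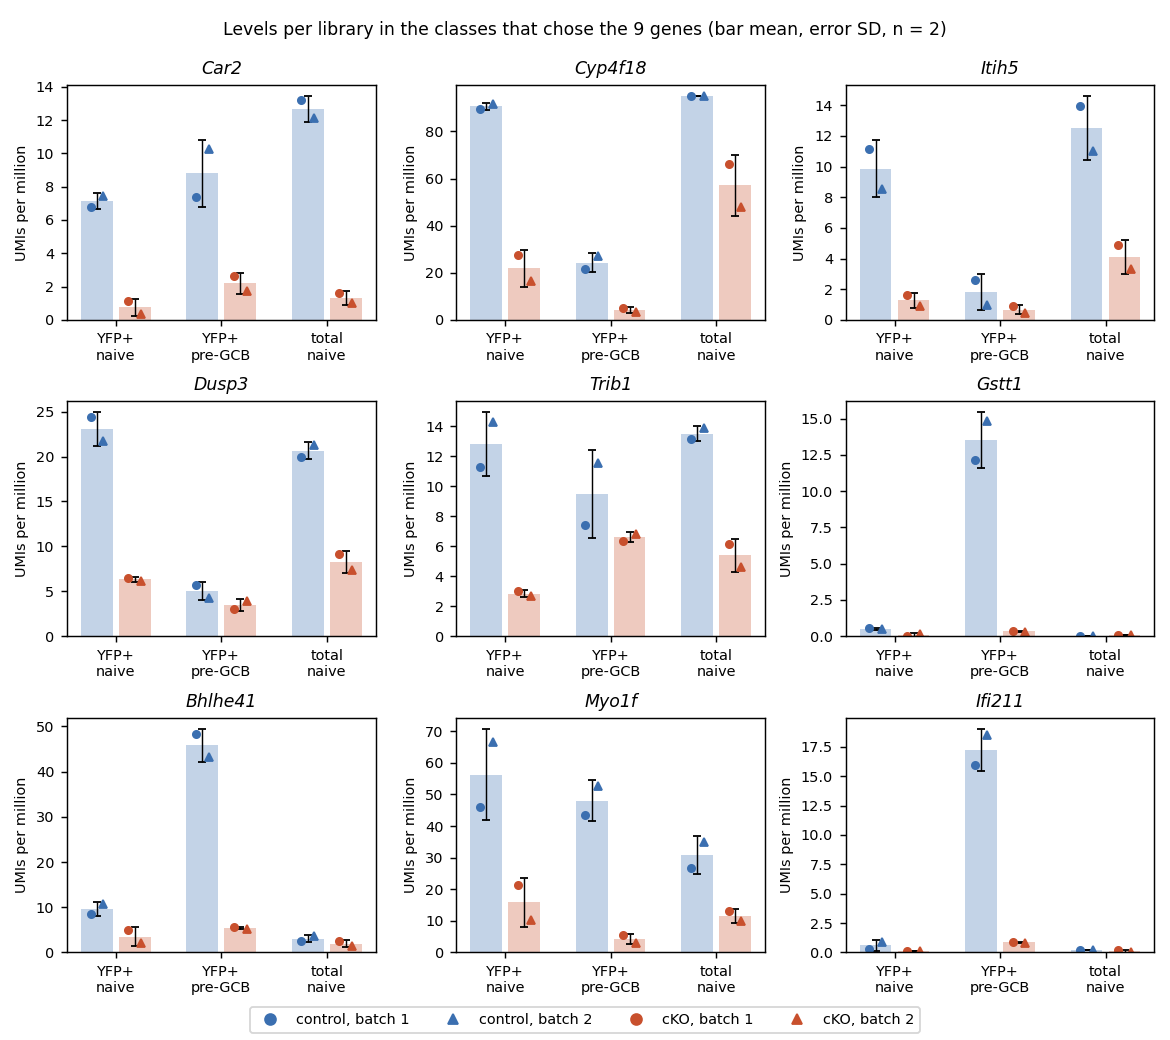
Each panel gives 1 gene, with the CPM of the class on the y axis (starting at 0) in YFP+ naive-like, YFP+ pre-GCB-like and total naive-like cells; bars and whiskers are the mean and SD of 2 libraries and the symbols are single libraries. The cKO symbols lie below the control symbols for Cyp4f18, Myo1f and Car2 in all 3 classes, while Gstt1 and Ifi211 separate in pre-GCB-like cells.

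The same 7 genes were lower in naive-like cells of total splenocytes, which were not selected for YFP. Car2 stood at 13.2 and 12.1 CPM in controls and 1.59 and 1.03 CPM in cKO, a log2 fold change of -3.11. Cyp4f18 stood at 95.0 and 94.9 CPM against 66.4 and 47.9 CPM, a log2 fold change of -0.64. This difference was narrower than the -1.92 of the YFP+ sort, and the size of the gap between sorts was not tested, since both contrasts chose the genes. Itih5 stood at 14.0 and 11.027 CPM against 4.90 and 3.33 CPM, a log2 fold change of -1.50. At cluster resolution 1.5 the log2 fold changes of Car2 and Itih5 were -2.11 and -0.47. Dusp3 stood at 19.984 and 21.3 CPM against 9.13 and 7.36 CPM, and Trib1 at 13.2 and 13.9 CPM against 6.15 and 4.62 CPM, each a log2 fold change of -1.23. The groups were again separate for these genes. Myo1f stood at 26.6 and 35.1 CPM against 13.0 and 9.98 CPM, a log2 fold change of -1.33. Bhlhe41 was low throughout, at 2.55 and 3.56 CPM against 2.47 and 1.36 CPM, a log2 fold change of -0.58, and here the first cKO library came close to the lower control. Without the first cKO pool Bhlhe41 stood at -0.98 and the other 6 genes at -3.36 to -0.84 on the log2 scale. Here 0.282% of 12772 genes passed the test in either direction.

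The naive-like class was held by different clusters in the 2 genotypes, and this stands beside every naive-like value. Cluster 1, led by Slc16a10, Maml3 and Abca1, held 95.95% of the naive-like cells of control YFP+ libraries and 1.073% of those of cKO YFP+ libraries. Clusters 0 and 2 held 38.35% and 60.58% of the cKO YFP+ naive-like cells, and cluster 2 was led by Scn3a, Cish, Nfil3 and Il4i1. Among the leaders of cluster 0 were Lifr, Rflnb, Wfdc17 and Xist, the last of which was high in the first cKO pool alone. Cluster 0 held 2747 cells of the first and 2366 of the second cKO YFP+ library. Within cKO YFP+ cells Cyp4f18 stood at 51.2 CPM in cluster 1, 32.7 CPM in cluster 0 and 14.7 CPM in cluster 2, against 91.0 CPM in cluster 1 of controls. Dusp3 followed the same order, at 12.8, 7.18 and 5.76 CPM against 23.1 CPM. For these 2 genes the cKO cells of cluster 1, the one held mostly by control cells, lay between the control cells and the other cKO clusters, but only 143 cKO YFP+ cells were in it. The 135 control YFP+ cells of cluster 0 stood at 88.9 CPM for Cyp4f18 and 26.7 CPM for Dusp3. Bhlhe41 was not lower in the cKO cells of cluster 1, at 9.60 CPM against 8.62 CPM in YFP+ and 3.55 CPM against 3.11 CPM in total splenocytes. Clusters were built on the same cells, so these values are a description. The share of naive-like cells among all B-lineage cells also differed in the YFP+ sort, at 19.979% and 18.0% in controls and 62.5% and 71.025% in cKO.

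Counting cells rather than UMIs gave the same picture. After every cell was thinned to 3000 UMIs, a Cyp4f18 UMI was found in 22.3% and 20.5% of control YFP+ naive-like cells and in 8.50% and 4.87% of cKO cells. Unthinned, the shares were 28.3% and 22.8% against 13.7% and 9.13%, at median depths of 4000 and 2873 UMIs per cell in controls and 5327 and 6074 in cKO. Naive-like control cells were thus the shallower ones, and 1216 of 2083 cells of the second control library fell below 3000 UMIs and were left out of the thinned share. CD8 T cells gave thinned shares of 1.87% to 2.41% in the 4 total libraries at median depths of 6992 to 8549 UMIs. The CD8 T class was not free of Cyp4f18, since cluster 22, with 12.25% to 29.18% of the CD8 T cells of a library, held it at 24.5 to 36.4 CPM, against 0.804 to 2.05 CPM in cluster 8. Cluster 22 had a median depth of 1.939 relative to its libraries, against 1.2 in cluster 8. It scored 1.25 for CD8 T and 1.08 for CD4 T markers, and the part of mixed cells in it was not tested. In 3 YFP+ libraries, where only 135, 22 and 101 CD8 T cells could be thinned, the CD8 T shares were 2.96%, 4.55% and 1.98%, and the second cKO share of naive-like cells, 4.87%, lay close to the highest of these. A Dusp3 UMI was found in 6.85% and 6.11% of thinned control cells and in 2.03% and 1.70% of cKO cells, and a Myo1f UMI in 10.2% and 17.9% against 5.36% and 2.92%. Of the 9 genes, a thinned naive-like cell carried on average 0.504 and 0.549 in control and 0.188 and 0.116 in cKO YFP+ libraries, and 57.4% and 55.3% against 82.4% and 88.9% of cells carried none.

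Red cell precursors also hold carbonic anhydrases, and haemoglobin RNA differed between the groups of total splenocytes. The 4 haemoglobin genes together stood at 250.66 and 257.6 CPM in naive-like cells of control total libraries and at 16.998 and 22.63 CPM in those of cKO. Of the 6 erythroid markers, 5 were tested in that contrast and 4, the haemoglobins Hbb-bt, Hbb-bs, Hba-a1 and Hba-a2, passed edgeR's test as lower. The whole list summed to 251.69 and 258.14 CPM against 17.249 and 23.082 CPM. In YFP+ naive-like cells haemoglobin stood at 10.483 and 18.494 CPM in controls and 16.221 and 7.4471 CPM in cKO, and the groups overlapped. Car2 was also read in naive-like cells without any haemoglobin UMI, a choice made after the values were seen and given as a description. In total splenocytes it stood at 11.7 and 12.1 CPM in controls and 1.64 and 0.977 CPM in cKO, and in YFP+ cells at 6.94 and 7.45 CPM against 1.04 and 0.343 CPM. In some other classes most of the Car2 UMIs lay in haemoglobin-bearing cells. All 30 Car2 UMIs of the MZB-like cells of the first control YFP+ library lay in such cells, as did 54 of 65 in pre-GCB-like cells of the second cKO total library, where haemoglobin stood at 1473.7 CPM, and 15 of 23 in transitional B-like cells of that library, where it stood at 1822.0 CPM. In GCB-like cells of the second control YFP+ library haemoglobin-bearing cells were 45.67% of the cells and held 287 of 571 Car2 UMIs, and Car2 stood at 12.4 CPM with them and 12.1 CPM without.

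**Figure D3:**
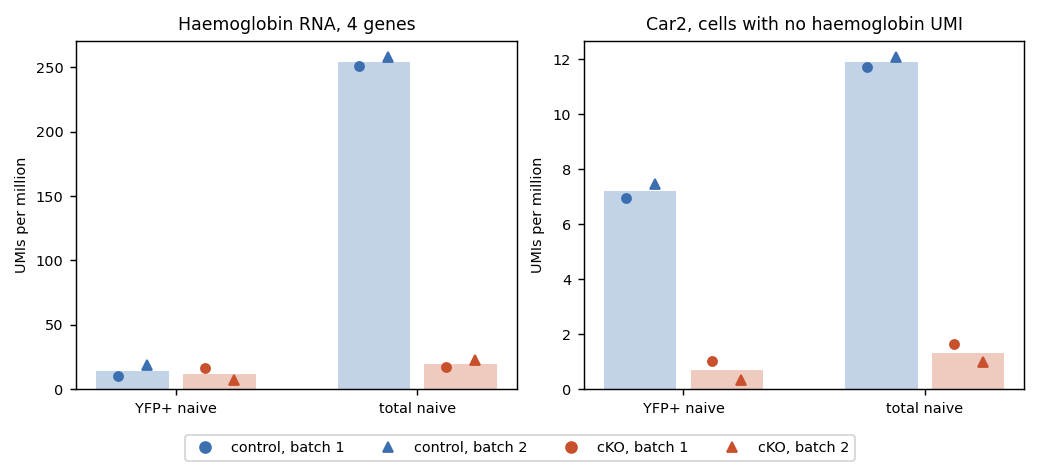
Left, summed CPM of 4 haemoglobin genes in naive-like cells; right, Car2 CPM in naive-like cells with no haemoglobin UMI. Bars are means of 2 libraries and symbols single libraries; haemoglobin is above 250 in both control total libraries and under 23 in all others, while Car2 is lower in cKO in both sorts.

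In YFP+ pre-GCB-like cells, the activated precursors of germinal centre B cells, all 9 genes were counted and a partly different set led. Gstt1 stood at 12.2 and 14.9 CPM in controls, from 51 and 45 UMIs, and at 0.345 and 0.309 CPM in cKO, from 11 and 12 UMIs, a log2 fold change of -4.90. Ifi211 stood at 16.0 and 18.5 CPM against 0.909 and 0.823 CPM, a log2 fold change of -4.07. Both were nearly lost from cKO cells, and both had been below the filter for a test in naive-like cells, with 0 to 8 UMIs per library. Gstt1 reached the level of the low-count filter in both control libraries and in neither cKO library, which favours a lower value. Myo1f stood at 43.4 and 52.5 CPM against 5.45 and 3.14 CPM, a log2 fold change of -3.38, which was -2.16 at cluster resolution 1.5 and -1.81 with classes defined in control libraries. Bhlhe41, the helix-loop-helix repressor shown above with its E-box, stood at 48.4 and 43.3 CPM against 5.58 and 5.30 CPM, a log2 fold change of -2.96. Cyp4f18 stood at 21.5 and 27.1 CPM against 5.14 and 3.37 CPM, a log2 fold change of -2.40. The 2 libraries of each group were close to each other for these 5 genes and the groups were far apart, in a contrast that chose the genes. Car2 stood at 7.39 and 10.2 CPM against 2.63 and 1.75 CPM, a log2 fold change of -1.87. Itih5 was near the limit of counting, at 2.62 and 0.991 CPM against 0.877 and 0.463 CPM, a log2 fold change of -1.29 with 3 UMIs in the second control library. Itih5 also reached the level of the filter in both control but not both cKO libraries. Dusp3 and Trib1 hardly separated. Dusp3 stood at 5.72 and 4.30 CPM against 2.98 and 3.96 CPM, a log2 fold change of -0.43, and Trib1 at 7.39 and 11.6 CPM against 6.36 and 6.84 CPM, a log2 fold change of -0.40. That of Trib1 turned to 0.016 without the second control library and was -1.37 with classes defined in control libraries. In this contrast 9.85% of 12817 genes passed the test in either direction. Without the first cKO pool Gstt1 stood at -4.82, Ifi211 at -4.05, Myo1f at -3.74 and Bhlhe41 at -2.94 on the log2 scale, and Cyp4f18, Car2, Itih5, Trib1 and Dusp3 at -2.66, -2.10, -1.62, -0.31 and -0.20.

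Markers of other classes moved in the same cells, in both directions. Of 8 GCB markers 3 rose and 1 fell, and the list summed to 141.9 and 160.62 CPM in controls and 288.76 and 257.71 CPM in cKO. Of 5 transitional B markers 2 rose and 1 fell, with sums of 450.99 and 505.0 CPM against 332.85 and 242.04 CPM. Of 8 pre-GCB markers Srm and Batf rose, and of the 6 CD4 T markers, 3 of them tested, Lef1 rose, with sums of 12.4 and 8.92 CPM against 88.7 and 71.6 CPM. Of 5 T-bet+ B markers, Itgax, Tbx21 and Cxcr3 fell, and that list summed to 350.11 and 283.24 CPM in controls and 201.38 and 214.45 CPM in cKO. Of 5 memory B markers 4 fell and 1 rose, with sums of 311.71 and 265.06 CPM against 180.79 and 129.23 CPM. Of 6 MZB markers 5 fell, with sums of 427.86 and 414.11 CPM against 93.622 and 51.001 CPM. Of 6 naive B markers 3 fell and 1 rose, and of 3 tested interferon-response markers Isg15 fell, with sums over that list of 18.6 and 28.8 CPM against 10.3 and 12.2 CPM. Of 6 B1 markers 3 fell and 1 rose, with sums of 170.05 and 109.06 CPM against 124.14 and 150.35 CPM. Bhlhe41 was high in T-bet+, B1-like and memory B-like cells of controls and Myo1f in memory B-like and T-bet+ B-like cells, and the part of such cells in the pre-GCB-like values was not tested. The pre-GCB-like class was made of clusters 5 and 9. Cluster 9, led by Fabp5, Socs2 and Timd2, held 31.21% of control and 46.92% of cKO YFP+ cells of the class, and in controls it held most of the Bhlhe41, at 61.1 CPM against 24.2 CPM in cluster 5. In cKO cells Bhlhe41 stood at 4.77 CPM in cluster 9 and 7.22 CPM in cluster 5, so each cluster alone was lower in cKO. The same held for Gstt1, at 20.1 and 3.11 CPM in controls and 0.250 and 0.531 CPM in cKO.

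Outside the 3 contrasts that chose the genes, 24 contrasts of a class and sort could be tested, with 144 pairs of a gene and a contrast above the low-count filter. By edgeR's quasi-likelihood test 4 pairs, 1 of them the Ifi211 pair set aside below, passed as lower in cKO and 2 as higher at an adjusted p under 0.05, and at an unadjusted p under 0.05 these were 43 and 3, where 2.59% and 2.72% of all 228449 gene and contrast pairs were lower and higher. In 14 of the 43 lower pairs both control but not both cKO libraries reached the level of the low-count filter. In the 19 contrasts other than those of B1-like, GCB-like, MZB-like and CD4 T cells described next, none of 110 pairs passed with edgeR, where 0.275% of all gene and contrast pairs did. Of the 110, 29 were lower and 1 was higher at an unadjusted p under 0.05, where 2.18% and 2.03% of all pairs were, and 11 of the 29 reached the filter in both control but not both cKO libraries. DESeq2 also called 0, and some passed with the batch block described further on.

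YFP+ B1-like cells, which arise separately from follicular B cells and make natural antibody, gave lower calls for Cyp4f18 and Trib1 among 6 tested genes, where 0.95% of 10635 genes passed as lower. Ifi211 also passed, but it entered the test through its control counts, and no weight is put on that call. Cyp4f18 stood at 65.5 and 60.5 CPM in controls and 23.2 and 10.3 CPM in cKO. The groups did not overlap, and the log2 fold change was -1.78 (SE 0.331, adjusted p = 0.020, edgeR). Trib1 stood at 19.7 and 23.5 CPM against 7.23 and 5.85 CPM, a log2 fold change of -1.56 (SE 0.302, adjusted p = 0.020, edgeR). Ifi211 rested on few UMIs, 27 and 28 in controls against 3 and 1 in cKO, or 4.48 and 5.87 CPM against 0.774 and 0.344 CPM. A gene that passes the low-count filter through the control libraries alone has to be lower in cKO, so its log2 fold change of -2.37 is a description. The value was -3.09 with DESeq2 and -1.47 at cluster resolution 1.5. Dusp3, at 13.8 and 16.5 CPM against 6.97 and 6.54 CPM, and Bhlhe41, at 100.2 and 90.7 CPM against 59.4 and 44.4 CPM, did not overlap either, but their adjusted p were 0.131 and 0.207 with edgeR. Myo1f stood at 9.95 and 17.2 CPM against 9.03 and 6.54 CPM. Without the second cKO library neither Cyp4f18 (-1.35) nor Trib1 (-1.46) passed, with edgeR adjusted p of 0.180 and 0.0848, and without the first both did, at -2.45 and -1.71. Such fits leave 1 cKO library, which is assumed to vary as the control libraries do. Of 6 MZB markers only Cr2 fell in B1-like cells, with sums of 418.21 and 377.46 CPM in controls and 207.76 and 173.48 CPM in cKO, and its part in the Cyp4f18 value was not tested. The 6 B1 markers summed to 467.81 and 523.25 CPM against 493.47 and 558.99 CPM, with 1, Zbtb32, lower, and the 5 memory B markers to 317.18 and 250.52 CPM against 163.63 and 107.74 CPM, with 1 higher and 1 lower. Of 5 transitional B markers Cd93 and Vpreb3 were called higher, while the sums overlapped, at 414.06 and 479.05 CPM against 458.63 and 393.77 CPM. Lef1 of the CD4 T list was also called higher. Jchain of the plasma cell list and Runx2 of the pDC list were called lower. The plasma cell list summed to 404.11 and 375.99 CPM against 282.61 and 290.51 CPM, but its median log2 fold change was 0.254. Their part was not tested.

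YFP+ GCB-like cells, the class of affinity maturation, held 9 tested genes, of which 1 passed as lower, where 0.443% of 12189 genes did. Myo1f, Car2 and Cyp4f18 were lower in cKO in all 11 alternatives, and no gene of these passed in every alternative. Several alternatives called more genes of every kind than the reported fit. In either direction 1.3% of genes passed in the reported fit, 2.08% with DESeq2 and 9.29% with the batch block. Myo1f stood at 9.26 and 8.62 CPM in controls and 2.96 and 1.97 CPM in cKO. Its groups did not overlap, with a log2 fold change of -1.74 (SE 0.334, adjusted p = 0.037, edgeR). The call was lost at cluster resolution 1.5 and with doublets removed (edgeR adjusted p = 0.0533 and 0.0635). Without the second cKO library it was -1.57 (adjusted p = 0.109, edgeR), and without the first -2.06 (adjusted p = 0.039, edgeR). Cyp4f18 stood at 30.2 and 29.985 CPM against 14.5 and 14.3 CPM, with almost no spread within a group, and its log2 fold change of -1.03 (SE 0.212) missed the threshold at an adjusted p of 0.057 with edgeR. Car2 stood at 6.20 and 12.4 CPM against 2.66 and 0.985 CPM, a log2 fold change of -2.22 (SE 0.527, adjusted p = 0.099, edgeR), which over the alternatives ran from -3.10 without the first cKO library (adjusted p = 0.000783, edgeR) to -1.46 without the second control library (adjusted p = 0.0114, edgeR). In CPM, though not as a ratio, the 2 control libraries of Car2 differed from each other by more than the first control differed from the first cKO library. Trib1 stood at 7.26 and 6.67 CPM against 3.55 and 4.19 CPM, Bhlhe41 at 4.24 and 2.36 CPM against 1.33 and 0.739 CPM, and Ifi211 at 2.43 and 2.62 CPM against 0.740 and 0.246 CPM. None of these 3 passed. Gstt1, which had been nearly lost in pre-GCB-like cells, stood at 21.0 and 8.16 CPM against 7.84 and 9.36 CPM, so that its groups overlapped (log2 fold change -0.68, adjusted p = 0.742, edgeR). Dusp3 was the one gene above 0, at 2.28 and 3.98 CPM against 6.07 and 4.19 CPM (log2 fold change 0.71, adjusted p = 0.759, edgeR). Itih5 was at 0.628 and 0.801 CPM in controls and at 4 UMIs and none in cKO. T-bet+ B markers also fell here in part, 2 of 5, with sums of 97.946 and 62.611 CPM against 36.393 and 22.907 CPM. Of 6 MZB markers Cr2 and Cd9 fell, with sums of 197.27 and 149.15 CPM against 64.205 and 50.494 CPM. Of 5 memory B markers Parm1 and Pdcd1lg2 rose, but the median log2 fold change of that list was -0.341. Its sums overlapped, at 224.7 and 88.916 CPM in controls and 220.28 and 182.27 CPM in cKO. Their part was not tested.

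In MZB-like cells none of the 9 genes passed, and they differed in how far cKO lay from control. Cyp4f18 stood at 86.3 and 91.4 CPM in controls and 80.6 and 68.0 CPM in cKO in the YFP+ sort (log2 fold change -0.21, SE 0.322, adjusted p = 1.0, edgeR), and at 82.7 and 89.6 CPM against 80.2 and 84.6 CPM in total splenocytes, where the groups overlapped. The second cKO library of the YFP+ sort held only 81 MZB-like cells, with 40 Cyp4f18 UMIs and 2 Myo1f UMIs. In total splenocytes Car2 stood at 1.60 and 2.23 CPM in controls and 0.600 and 0.431 CPM in cKO, the latter from 3 UMIs and 1 UMI (log2 fold change -1.39, edgeR adjusted p = 1.0), and Myo1f at 18.5 and 22.0 CPM against 12.8 and 14.2 CPM (-0.59, 1.0). Neither gene overlapped between the groups. Car2 reached the level of the low-count filter in both control libraries and in neither cKO library, so no weight is put on its value. Trib1 stood at 8.10 and 9.96 CPM against 4.30 and 5.10 CPM in the YFP+ sort (log2 fold change -0.90, edgeR adjusted p = 1.0). Without the first cKO library the YFP+ log2 fold changes were -0.26 for Cyp4f18 and -0.65 for Trib1, neither passing. That of Myo1f was -0.70 (edgeR adjusted p = 1.0) and moved from -2.96 without the first cKO library to -0.20 without the second, and did not pass in any of 11 alternatives. Of 6 genes tested in YFP+ and 7 in total MZB-like cells, none passed as lower with edgeR, where 0.0681% and 0.0% of genes did, so the test called hardly any gene in this class. At an unadjusted p under 0.05, 0 genes were lower in the YFP+ sort and 2, Car2 and Myo1f, in total splenocytes. Over the 24 tested contrasts together 2.59% of all gene and contrast pairs were lower at that p, and the share in MZB-like cells alone is not given. DESeq2 called 0 of the 9 genes in either sort. The difference between classes was itself tested in a model with both classes and a term per library, an analysis added after the data were seen. Such models leave 2 residual degrees of freedom, so their p-values rest on few libraries. The cKO effect on Cyp4f18 was lower in B1-like than in MZB-like YFP+ cells by a log2 difference of -1.43 (SE 0.207, edgeR adjusted p = 5.42e-09), where 3.69% of 11116 genes differed, and it stayed between -2.16 and -1.20 when each library was left out. Between GCB-like and MZB-like cells the log2 difference was -0.74 for Cyp4f18 (SE 0.236, edgeR adjusted p = 0.0701) and -0.88 for Myo1f (SE 0.420, edgeR adjusted p = 0.341), where 2.15% of genes differed. For Myo1f it turned to 1.16 without the first cKO library and was -1.37 without the second. The effects on Trib1 and Ifi211 were not shown to differ between B1-like and MZB-like cells (edgeR adjusted p = 0.759 and 0.567).

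**Figure D4:**
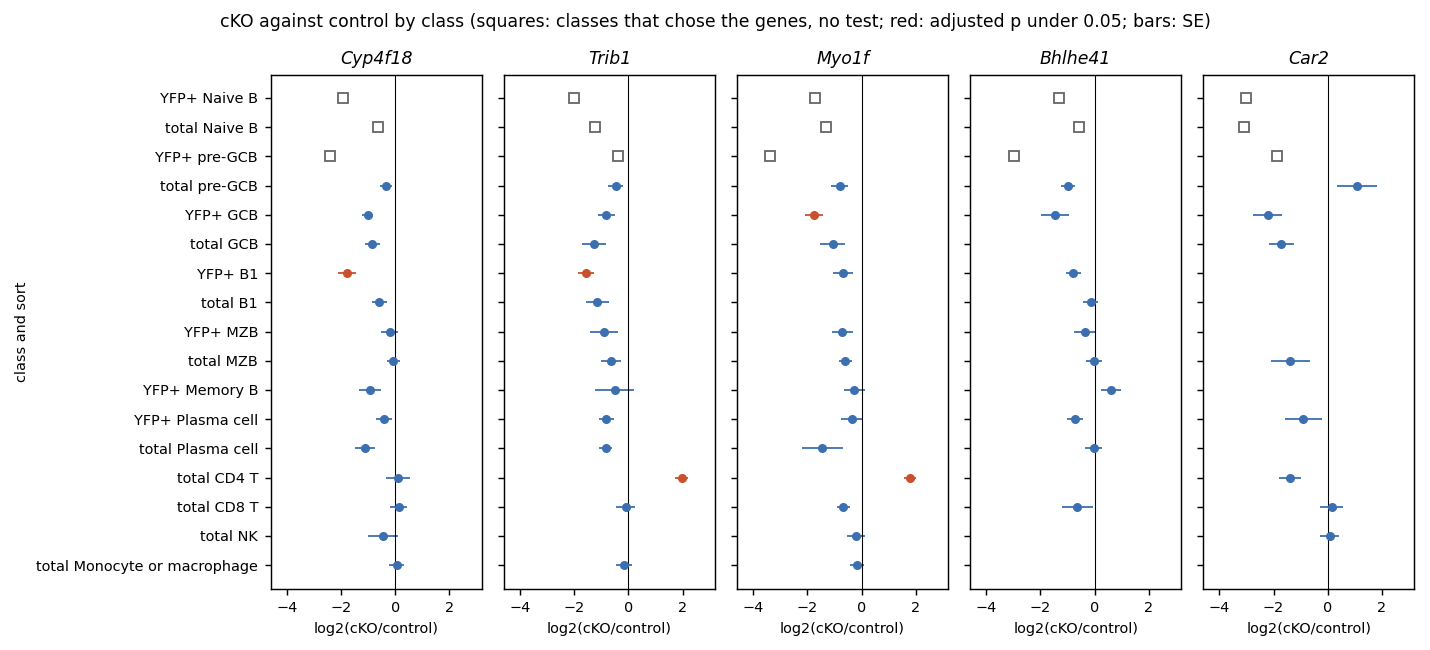
The x axis gives the log2 fold change of cKO over control for 5 of the genes in 17 class and sort contrasts (y axis); circles are tested contrasts with the standard error as a bar, red where the adjusted p is under 0.05, and open squares are the 3 contrasts that chose the genes. Cyp4f18 lies left of 0 in B1-like and GCB-like cells and near 0 in MZB-like cells, and Trib1 and Myo1f lie right of 0 only in CD4 T cells among the contrasts drawn.

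Other antibody-lineage classes were thinly filled in cKO mice. YFP+ memory B-like cells numbered 60 and 49 in the cKO libraries and T-bet+ B-like cells 52 and 33. In memory B-like cells Bhlhe41, a marker of that class, did not pass, at 71.9 and 101 CPM in controls and 98.5 and 135 CPM in cKO, a log2 fold change of 0.60 (edgeR adjusted p = 0.817) with overlapping groups. With classes defined in control libraries it turned to -1.64 and passed as lower (edgeR adjusted p = 0.0356). Cyp4f18 stood at 53.4 and 44.0 CPM against 26.4 and 18.0 CPM and Myo1f at 186 and 166 CPM against 135 and 124 CPM, and neither passed. In T-bet+ B-like cells Myo1f stood at 125 and 179 CPM against 66.4 and 83.9 CPM and Bhlhe41 at 102 and 114 CPM against 86.5 and 86.5 CPM, also without passing. Plasma cell-like cells, where Trib1 is highest in the B lineage, held Trib1 at 77.9 and 90.1 CPM in controls and 42.7 and 47.4 CPM in cKO in the YFP+ sort. The groups did not overlap, but the log2 fold change of -0.83 had an adjusted p of 0.370 with edgeR. In total splenocytes Bhlhe41 of pre-GCB-like cells stood at 17.4 and 16.9 CPM against 9.71 and 6.69 CPM (log2 fold change -0.998, edgeR adjusted p = 0.267).

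The labels call the library number a batch, and a fit with the batch as a block called far more genes of every kind, with 1 residual degree of freedom. With that block 31 of the 144 pairs passed, 27 lower and 4 higher, in 13 contrasts, and the 6 pairs called without it were among them. In 7 of the 27 lower pairs both control but not both cKO libraries reached the level of the low-count filter, which favours a lower value, and no weight is put on them. These were Ifi211 in YFP+ B1-like and GCB-like cells, Trib1 in total B1-like cells, Car2 in total GCB-like cells, Myo1f in YFP+ cells with an interferon response, and Car2 and Itih5 in such cells of total splenocytes. The calls below are among the other 24 pairs. In YFP+ B1-like cells Bhlhe41 (-0.79, edgeR adjusted p = 2.08e-05) and Dusp3 (-1.01, 0.00175) joined Cyp4f18 and Trib1, where 15.4% of genes passed. In YFP+ GCB-like cells Car2 (-2.0011, edgeR adjusted p = 7.08e-09), Cyp4f18 (-1.02, 1.23e-06), Bhlhe41 (-1.53, 0.0104) and Gstt1 (-0.65, 0.0399) joined Myo1f, where 9.29% passed. B1-like cells of total splenocytes gave Dusp3 and Cyp4f18 as lower (edgeR adjusted p = 0.0155 and 0.0478, 4.22% of genes passing). Total GCB-like cells gave Cyp4f18 as lower (edgeR adjusted p = 0.0242, 4.99% passing), and total plasma cell-like cells gave Trib1 and Cyp4f18 as lower (edgeR adjusted p = 0.00103 and 0.0022, 4.27% passing). YFP+ plasma cell-like cells gave Trib1 (edgeR adjusted p = 0.0398, 1.66% passing), and total pre-GCB-like cells gave Bhlhe41 (edgeR adjusted p = 0.00561, 5.84% passing). YFP+ cells with an interferon response gave Cyp4f18 as lower (edgeR adjusted p = 0.0305, 3.65% passing). Memory B-like cells gave Cyp4f18 as lower at -0.94 and Bhlhe41 as higher at 0.60 (edgeR adjusted p = 0.0269 and 0.0249, 8.78% passing). CD4 T cells gave Trib1 and Myo1f as higher and Car2 as lower at -1.32 (edgeR adjusted p = 4.25e-05, 8.76e-05 and 0.0148, 26.0% passing). Of the other contrasts outside the B lineage, CD8 T cells gave Myo1f as lower (edgeR adjusted p = 0.000264, 6.45% passing) and a cluster with erythroid and C1q genes gave Car2 as higher at 1.20 (edgeR adjusted p = 0.00542, 1.06% passing). Among B cell contrasts Bhlhe41 in memory B-like cells was the one higher call with this block, which with control-defined classes and no block was a lower call.

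In CD4 T cells of total splenocytes 2 of 6 tested genes, Trib1 and Myo1f, passed as higher, and 2 of the 6 lay below 0. Dusp3 and Cyp4f18 lay above 0 without passing, at log2 fold changes of 1.34 and 0.10 (edgeR adjusted p = 0.326 and 0.95). Trib1 stood at 17.3 and 19.4 CPM in controls and 71.5 and 88.2 CPM in cKO, a log2 fold change of 1.97 (SE 0.241, adjusted p = 0.012, edgeR). Myo1f stood at 19.1 and 16.963 CPM against 63.4 and 75.0 CPM, a log2 fold change of 1.79 (SE 0.227, adjusted p = 0.012, edgeR). Both cKO libraries lay far above both controls, and 4.13% of 12244 genes passed as higher in this class. Without the first cKO pool the log2 fold changes were 2.10 and 1.89. At cluster resolution 1.5 that of Myo1f fell to 0.86 and no longer passed (edgeR adjusted p = 0.0989). The class was made of 2 clusters in unequal shares. Cluster 9, led by Sostdc1, Ikzf2, Areg and Tnfrsf4, held 18.7% and 18.3% of CD4 T cells in controls and 56.0% and 69.2% in cKO, and cluster 6, led by Igfbp4 and Ly6c1, held the rest. Within cluster 9 Myo1f stood at 85.8 and 72.9 CPM in controls and 109 and 103 CPM in cKO, and Trib1 at 65.3 and 74.4 CPM against 118 and 120.3 CPM. Within cluster 6 Myo1f stood at 2.43 and 4.37 CPM against 1.21 and 3.15 CPM and Trib1 at 5.27 and 6.99 CPM against 7.50 and 6.97 CPM. The difference within either cluster was therefore much narrower than in the whole class, and both genes stood far higher in cluster 9 than in cluster 6 in every library. The 6 CD4 T markers summed to 3426.8 and 3602.4 CPM against 3051.2 and 3604.6 CPM with none passing, the monocyte markers to 4.75 and 12.5 CPM against 8.46 and 11.8 CPM, and the 6 B markers to 130.33 and 207.55 CPM against 351.37 and 380.48 CPM, with Cd22 called higher. The 6 NK markers summed to 7.24 and 8.84 CPM against 24.1 and 62.4 CPM, with Eomes called higher of 3 tested, and the part of NK or B cell RNA in the Myo1f and Trib1 values was not tested.

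CD8 T cells of the same libraries did not share this. Trib1 stood at 4.69 and 5.48 CPM against 4.03 and 5.32 CPM and Myo1f at 57.6 and 54.8 CPM against 29.963 and 38.9 CPM, a log2 fold change of -0.68 (edgeR adjusted p = 0.869). The cKO effect in CD4 T minus that in CD8 T cells was 2.11 on the log2 scale for Trib1 (SE 0.255, edgeR adjusted p = 1.04e-05) and 2.51 for Myo1f (SE 0.143, edgeR adjusted p = 3.62e-09), where 14.0% of 12715 genes differed. The CD8 T class left out cluster 17, led by Ifngas1, Ctla2a, Trdc and Eomes. Cluster 17 scored 2.19 for CD8 T and 1.99 for gamma delta T markers and was named gamma delta T. It held 219 and 329 cells in control and 392 and 523 in cKO total libraries. In the gamma delta T class the log2 fold changes were -0.72 for Trib1 and -0.62 for Myo1f, neither passing. The part of cluster 17 in the comparison with CD8 T cells was not tested. Car2 stood at 7.56 and 3.99 CPM in control and 2.45 and 2.23 CPM in cKO CD4 T cells and did not pass there (log2 fold change -1.39, edgeR adjusted p = 0.104). Its difference from CD8 T cells was -1.43 (SE 0.480, edgeR adjusted p = 0.0357), and it was lost without the second cKO library (-0.72, 0.466) or the first control library (-0.89, 0.385). Myeloid and NK cells, in which several of the genes are highest, showed overlapping groups for Cyp4f18, at 178 and 204 CPM against 203 and 194 CPM in monocyte or macrophage-like cells. Car2 of NK cells likewise overlapped, at 279 and 251 CPM against 214 and 334 CPM, as did Itih5, at 41.3 and 32.9 CPM against 36.2 and 31.8 CPM. In some cases, named after their values were seen and not a full list, the cKO libraries lay above both controls. They include Ifi211 in monocyte or macrophage-like cells, at 62.5 to 132 CPM in controls and 136 to 167 CPM in cKO, without passing. Ifi211 of neutrophil-like cells stood at 0.899 to 5.86 CPM against 9.78 to 11.5 CPM. Car2 of pDC-like cells stood at 0.0 to 1.64 CPM against 7.67 to 7.97 CPM. Car2 of monocyte or macrophage-like cells went the other way, at 1.68 to 3.29 CPM against 0.0 to 1.37 CPM. Except for the first, these were below the filter for a test. Ifi211 of cDC-like cells stood at 17.0003 and 14.1 CPM in controls and 29.0 and 26.6 CPM in cKO (log2 fold change 0.78, edgeR adjusted p = 1.0). Gstt1 of neutrophil-like cells stood at 0.899 and 1.95 CPM, from 1 UMI each, against 7.65 and 13.0 CPM, from 6 and 12 UMIs, and was below the filter for a test.

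Relatives and pathway partners of the 9 genes were mostly not called. In YFP+ naive-like cells 2 of 74 tested relatives passed edgeR's test, both higher, where 0.777% of all genes passed in either direction. Dusp10, a MAP kinase phosphatase acting on JNK and p38, stood at 27.6 and 25.6 CPM in controls and 77.0 and 87.5 CPM in cKO, a log2 fold change of 1.78 (edgeR adjusted p = 0.0298). Nfil3, a bZIP repressor of the clock list, stood at 5.04 and 6.22 CPM against 78.4 and 152 CPM, a log2 fold change of 4.50 (edgeR adjusted p = 0.0109). Nfil3 also rose in total naive-like cells (5.92, edgeR adjusted p = 0.00655), in pre-GCB-like cells (3.59, 0.000534) and in GCB-like cells (2.87, 0.000809). In GCB-like cells Bhlhe40, the close relative of Bhlhe41, fell from 24.4 and 25.4 CPM to 7.84 and 11.1 CPM, a log2 fold change of -1.38 (edgeR adjusted p = 0.0382), and 1.3% of all genes passed there in either direction. All other lists had no edgeR call in naive-like or GCB-like cells, with 0 to 3 genes per list at an unadjusted p under 0.05. DESeq2 called 6 of 72 relatives in YFP+ naive-like, 5 of 75 in total naive-like and 6 of 76 in YFP+ GCB-like cells over all lists, where it called 2.54%, 1.61% and 2.08% of all genes.

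In YFP+ pre-GCB-like cells 5 of 9 tested PYHIN relatives of Ifi211 fell and none rose, where 5.31% of 12817 genes passed as lower. Their median log2 fold change was -0.87 against -0.0022 for all genes, and since reads may be shared within this family the 5 calls may not be separate. Mndal stood at 392 and 391 CPM against 180 and 148 CPM (-1.17, edgeR adjusted p = 0.00808). Ifi207, 1 of the 5, stood at 2.62 and 1.32 CPM against 0.345 and 0.232 CPM (-2.38). It reached the level of the low-count filter in both control libraries and in neither cKO library, so no weight is put on its call. Of 12 glutathione transferases 2 fell and 1 rose. Gstt3, the neighbour of Gstt1, fell by 2.89 on the log2 scale (edgeR adjusted p = 0.00525), from 5.96 and 3.97 CPM to 0.470 and 0.618 CPM, and Gstm5 rose by 1.85 (edgeR adjusted p = 0.048). Of 8 Tribbles genes and partners Trib2 and the C/EBP factor Cebpb fell, by 1.54 and 1.49 on the log2 scale (edgeR adjusted p = 0.00904 and 0.0122). Of 12 class I myosins and actin partners Myo1e fell by 1.32 (edgeR adjusted p = 0.0104), from 467 and 340 CPM to 180 and 123 CPM. Of 5 leukotriene and CYP4F genes Alox5ap, which feeds arachidonate to 5-lipoxygenase, fell by 2.77 (edgeR adjusted p = 0.0118) and Cyp4f16 rose by 2.47 (edgeR adjusted p = 0.0381). Gstt3 and Alox5ap reached the level of the low-count filter in both control but not both cKO libraries. Cyp4f16 reached it in both cKO but not both control libraries, and no weight is put on the calls of Gstt3, Alox5ap and Cyp4f16. Dusp10 again rose, by 1.08 (edgeR adjusted p = 0.0187), of 13 MAP kinase phosphatases. The 4 other carbonic anhydrases and the 4 inter-alpha-trypsin and hyaluronan genes had no call, with 1 gene each at an unadjusted p under 0.05.

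The genes most like each member in level were found over the 31 class and sort profiles of control mice, as Pearson's r of log2(CPM + 1) among 11932 genes, given as a description since profiles share libraries. Among the 3 genes most like Cyp4f18 were Syk (r = 0.866) and Lyl1 (0.854). Myo1f was most like Tln1 (r = 0.852), Ostf1 (0.844) and Nr4a2 (0.831), and Dusp3 most like Myadm (r = 0.866), Pira2 (0.831) and Tspan17 (0.816). Bhlhe41 was most like Sspn (r = 0.783), E330020D12Rik (0.770) and Fcrl5 (0.766). Gstt1 was most like Car13 (r = 0.869), its chromosomal neighbour Ddt (0.856) and Cenpm (0.851). Car2 was most like Syngr1 (r = 0.891), Sema6a (0.838) and Tjp1 (0.799), and Trib1 most like Slc44a1 (r = 0.856), Tmem205 (0.814) and Atp6v0c (0.800). Among the 3 genes most like Itih5 were Golga1 (r = 0.745) and Parp16 (0.700), and Ifi211 was most like Sh2d1b1 (r = 0.811), Adssl1 (0.805) and Tubb6 (0.776). Among themselves the 9 genes had pairwise r from -0.436 to 0.737, with Cyp4f18 and Dusp3 the closest pair, so they did not share 1 pattern over cell types in control mice.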

How the data were processed

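Single-cell RNA was measured in 8 libraries of mouse cells labelled as spleen (SeekOne DD 3′ kit), 2 each of control and cKO total splenocytes and YFP+ cells. The deposited files hold UMI counts per gene and cell, which the authors made from their reads on GRCm38 (mm10, per the submitters' processing notes), with an aligner not given in the sources used here. Cells were required to have over 200 UMIs, over 100 genes and at most 10% mitochondrial UMIs, which removed 263 of 83967 barcodes. No doublet was removed in the reported values, and a score against simulated doublets marked 0.582% to 2.31% of cells for an alternative, with the threshold of the 4 YFP+ libraries taken as the median of those of the other libraries. Counts were scaled to 10000 per cell, and 2000 variable genes, 30 principal components, 20 neighbours and Leiden clustering at resolution 1 (Python 3.11.15, scikit-learn 1.9.0, igraph 0.11.9) gave clusters, which were named from marker lists where at least 3 markers were detected in 10% of cells. B-lineage cells left unnamed were 0.651% to 3.41% of cells per group. Class names were rebuilt here and can differ from those of the study.

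UMI counts were summed per library and class of at least 20 cells and tested by edgeR 4.0.16 (R 4.3.3) with TMM, its low-count filter, a robust quasi-likelihood F test, a prior count of 2 for fold changes and Benjamini-Hochberg adjustment over all genes, threshold 0.05. The edgeR SE was worked back from the F statistic and the coefficient without the prior count, so it does not belong exactly to the fold change printed beside it. DESeq2 1.42.0, no filter, other clusterings, classes defined in control libraries, doublets removed, a batch block and leaving out each library were the alternatives. Depth was 71894780 to 105224903 UMIs per library, and limits from counts cover counting error only. The fits were tested on simulated data. The 9 genes, the family lists, the marker lists and the motifs were chosen with earlier results of these data known. Always named were the 9 genes, up to 2 called genes with the largest absolute change per family list and contrast, and the 3 most similar genes, where likeness used genes with at least 10 CPM in a profile and 2 of the similar genes are not reported here. Genes named as markers came from the marker lists, and cluster leaders from the 10 genes highest by fold. The labels call the library number a batch, so numbers pair libraries, and the deviations of same-numbered libraries from their group means correlated with r = 0.201 to 0.71 over 27 contrasts. Replicate libraries differed by more than sampling noise (chi-square per degree of freedom 5.675 to 144). The interaction models and the Car2 values without haemoglobin-bearing cells were added after the data were seen.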

Additional observations from a re-analysis of the deposited data

Results flagged for a closer look

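The 4 differences between classes of the same libraries below come from models added after the data were seen, and each was tested as the difference itself. These models leave few residual degrees of freedom, so their p-values rest on few libraries. In YFP+ cells the cKO effect on Cyp4f18 was lower in B1-like than in MZB-like cells by -1.43 on the log2 scale (SE 0.207, edgeR adjusted p = 5.42e-09). It had this direction in all 4 fits that left out 1 library each, from -2.16 to -1.20.

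In total splenocytes the cKO effect in CD4 T minus that in CD8 T cells was 2.11 for Trib1 (SE 0.255, edgeR adjusted p = 1.04e-05) and 2.51 for Myo1f (SE 0.143, edgeR adjusted p = 3.62e-09). Left out 1 library at a time, these values were 2.06 to 2.17 for Trib1 and 2.43 to 2.60 for Myo1f. Cluster 9 of the CD4 T class, led by Sostdc1, Ikzf2, Areg and Tnfrsf4, held 18.7% and 18.3% of that class in controls and 56.0% and 69.2% in cKO, and its part in both values was not tested by a model. The CD8 T class left out cluster 17, which scored 2.19 for CD8 T and 1.99 for gamma delta T markers and was named gamma delta T.

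The same difference was -1.43 for Car2 (SE 0.480, edgeR adjusted p = 0.0357). It was -0.72 without the second cKO library and -0.89 without the first control library (edgeR adjusted p = 0.466 and 0.385), so that it rested on these 2 libraries, and it was -2.03 without the first cKO library.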

How the results depend on the processing

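Among the values of single genes under the alternatives, 608 counted as the same. For a tested value this means the same direction and side of the threshold. For an untested value it means the same direction and a move smaller than the spread between replicates. Of the rest, 52 newly passed the threshold, 10 no longer passed, 15 changed sign and 23 untested values moved by more than that spread. The counts of called genes moved most. In YFP+ GCB-like cells 158 genes passed, against 254 with DESeq2, 521 without a filter on low counts, 1132 with the replicate block, 2958 with classes defined in control libraries and 201 to 1036 with 1 library left out. In YFP+ MZB-like cells 15 passed, against 6 with DESeq2, 361 with the block, 24 at resolution 1.5, 43 with classes defined in control libraries and 2 to 25 with 1 library left out. In total MZB-like cells 4 passed, against 8 with DESeq2, 19 without a filter, 197 with the block and 13 to 20 with 1 library left out. In total CD4 T cells 551 passed, against 1481 without a filter, 3189 with the block, 365 at resolution 1.5 and 533 to 1368 with 1 library left out.

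Of the family lists, 2 genes passed in YFP+ naive B-like cells, against 6 with DESeq2, 9 without a filter, 20 with the block and 3 to 13 with 1 library left out. In YFP+ pre-GCB-like cells 15 passed, against 24, 32 and 7 to 26 without a filter, with the block and with 1 library left out. In total naive B-like cells 1 passed, against 5 with DESeq2, 6 without a filter, 26 with the block and 1 to 7 with 1 library left out. In YFP+ GCB-like cells 2 passed, against 6, 8, 14 and 1 to 13 in the same order. The cause was not tested for any of these counts. With the block, which leaves 1 residual degree of freedom, 31 of 144 pairs of gene and contrast passed, against 6 without it. In 7 of the 31, and in 1 of the 6, both control but not both cKO libraries reached the level of the low-count filter.

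Of the log2 fold changes that changed sign, none had passed in the reported fit, and that of Trib1 in YFP+ pre-GCB-like cells was not tested. With classes defined in control libraries they were 0.15 for Bhlhe41 in YFP+ GCB-like, -0.19 for Dusp3 in YFP+ MZB-like and -1.64 for Bhlhe41 in YFP+ memory B-like cells, and with doublets removed 0.15 for Trib1 in CD8 T cells. The value of Bhlhe41 in memory B-like cells passed in that direction (edgeR adjusted p = 0.0356), opposite to its call with the block. With 1 library left out, the values ran from -0.75 to 0.016 for Trib1 in YFP+ pre-GCB-like, -1.16 to 0.011 for Gstt1 in YFP+ GCB-like and -0.036 to 1.02 for Dusp3 in YFP+ MZB-like cells. In total MZB-like cells they ran from -0.16 to 0.035 for Cyp4f18, -1.83 to 0.21 for Itih5, -0.015 to 0.44 for Dusp3 and -0.11 to 0.062 for Bhlhe41, and in CD8 T cells from -0.33 to 0.12 for Trib1 and -0.56 to 0.65 for Car2. The cause was not tested.

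Of the calls, that of Myo1f in GCB-like cells was lost at resolution 1.5 and with doublets removed (edgeR adjusted p = 0.0533 and 0.0635), and that of Myo1f in CD4 T cells at resolution 1.5 (edgeR adjusted p = 0.0989). Trib1 in CD4 T cells passed in 11 of 11 alternatives, from 1.81 to 2.10. No other call passed in all 11. In YFP+ B1-like cells Cyp4f18 and Trib1 passed in 10 each and Ifi211 in 7. Myo1f passed in 8 in YFP+ GCB-like cells and in 10 in CD4 T cells.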
